A study of Mus musculus with 4 samples.

Results

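Heat shock chaperones are proteins that bind unfolded or newly made proteins and help them fold, refold or be removed. The 10 genes described here are Hspa1a, Hspa1b, Dnajb1, Hsph1 and Hspb1, known for strong induction by heat and protein stress, and Hsp90aa1, Hspa8, Hspd1, Hspe1 and Dnaja1, which are present in unstressed cells and are called basal here. Hsp90aa1 is the more stress-responsive of the cytosolic HSP90 genes, so the division is not a strict one. They were taken by symbol from the 32285 genes of 4 single-cell RNA libraries of mouse pancreatic islets, and all 10 were found. The set was selected on earlier values of these same libraries, the HH over WT ratios of Hspa1a, Hspa1b and Dnajb1 in beta cells, so the beta cell contrasts between genotypes are given as a description.

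The libraries came from male littermates of C57BL6/N background that were wildtype for Pax4 (WT) or homozygous for an R200H substitution in the endogenous Pax4 gene (HH), the mouse counterpart of human R192H. Pax4 is a transcription factor needed for beta cells to form. WT SCD and HH SCD were islets of mice aged 12 weeks on standard chow diet (SCD), and WT HFD and HH HFD were islets of mice aged 16 weeks after 4 weeks of high-fat diet (HFD). Each library pooled the islets of 2 to 3 mice, dispersed with trypsin and EDTA at 37 °C for 10 min, and each group is 1 library. There is therefore no replicate check on any difference below, the difference between groups and the difference between single preparations cannot be told apart, and diet and age cannot be told apart.

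In stressed cells the transcription factor HSF1 binds heat shock elements, repeats of the letters GAA and TTC, and switches on HSP70 (Hspa1a, Hspa1b), its DnaJ partner (Dnajb1), the nucleotide exchange factor HSP110 (Hsph1) and the small heat shock protein HSP27 (Hspb1). The basal members include the constitutive HSP70 (Hspa8), a cytosolic HSP90 (Hsp90aa1), the DnaJ protein Dnaja1, and the mitochondrial chaperonin HSP60 with its lid HSP10 (Hspd1, Hspe1). Islet endocrine cells make and secrete large amounts of hormone, and warm enzymatic dispersal of tissue is itself known to induce heat shock and early response genes.

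The 2 inducible HSP70 genes are near-copies. Hspa1b (ENSMUSG00000090877) lies at chr17:34956436-34959238 and Hspa1a (ENSMUSG00000091971) at chr17:34969190-34972156, both on the minus strand of GRCm38 with 9951 bases between them. The 250 bases before their starts are 98.8% identical, differing at 3 positions counted from the window's first base, with the Hspa1a base first (C44T, T47C, T249G). Their longest transcripts are 90.7% identical, but the best local match between the last 500 bases of each spans only 20 bases, 16 of them identical. Reads of a 3′ assay fall mostly in that last stretch. How the authors' counting assigned reads from the shared part is not given in the sources used here, so the split of UMIs between the 2 genes is uncertain and their sum is given as well.

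The stretches below, from RefSeq on GRCm38.p6 and written 5′ to 3′ along the gene, are shown because they hold heat shock element letters close to the starts of 3 inducible members and of the basal pair Hspd1 and Hspe1. Capitals mark GAANNTTC or TTCNNGAA, the letters of a 2-unit element, each of which reads the same on both strands. The Hspa1a stretch is chr17:34972157-34972306 and the Hspa1b stretch chr17:34959239-34959388, both minus strand. The Hspb1 stretch is chr5:135887769-135887918, plus strand, and the Hspe1 stretch is chr1:55088053-55088082, plus strand. The first 3 end at the base before the gene's start and hold no annotated exon, while the Hspe1 stretch ends 66 bases before the start and lies in an untranslated exon of the head-to-head gene Hspd1, whose annotation overlaps that of Hspe1 by 112 bases.
Hspa1a: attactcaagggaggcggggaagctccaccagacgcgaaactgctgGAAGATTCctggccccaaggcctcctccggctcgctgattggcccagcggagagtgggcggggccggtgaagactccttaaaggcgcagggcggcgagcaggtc
Hspa1b: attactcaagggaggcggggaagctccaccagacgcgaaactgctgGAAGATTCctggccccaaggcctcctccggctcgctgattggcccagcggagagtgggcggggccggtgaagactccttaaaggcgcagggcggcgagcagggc
Hspb1: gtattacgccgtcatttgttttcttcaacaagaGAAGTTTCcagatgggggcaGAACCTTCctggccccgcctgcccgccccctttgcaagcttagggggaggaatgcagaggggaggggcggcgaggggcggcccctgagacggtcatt
Hspe1: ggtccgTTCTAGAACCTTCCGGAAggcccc

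RefSeq windows were at hand for 8 of the 10 members. At least 1 window of 250 bases before a start held a 2-unit match for 7 of these 8 genes, 4 inducible and 3 basal, against 14.5% of all 27025 genes with such windows. The longer run GAANNTTCNNGAA or TTCNNGAANNTTC, which contains the shorter one, was found for Hspd1 and Hspe1, whose windows overlap, and for 0.514% of all genes. The windows of Dnajb1, an inducible member, held no match, and Hsp90aa1 and Hspa8 had no window. A match of letters is a description of sequence and not evidence that a site is bound.

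The libraries held 68011082 to 104810105 UMIs in 4665 to 7123 barcodes, and 12404 cells passed the filters. A UMI, or unique molecular identifier, marks 1 captured RNA molecule, and levels below are counts-per-million (CPM), the UMIs of a gene summed over a cell class and scaled by all UMIs of that class. The intervals are 95% intervals for counting error only. The cells were clustered without the 10 genes or any other chaperone or early response gene, and clusters were called beta-like, alpha-like, delta-like, PP-like or endothelial-like from marker genes. The names rest on these markers, so their levels are no separate check of them: 8 of 10 beta, 5 of 7 alpha, 5 of 5 delta, 3 of 5 PP and 9 of 9 endothelial markers were highest in their own class in all 4 libraries. Pax4 had 0 UMIs in every library, so the RNA gives no check of the genotypes.

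WT HFD stood apart from the other libraries. The filters kept 38.3% of its barcodes, against 61.6% to 67.8% elsewhere, and its median depth over all barcodes was 5185 UMIs, against 11619 to 15768. The cells kept from it were the deepest, with a median of 29798 UMIs in beta-like cells, 26374.5 in WT SCD, 26151 in HH SCD and 24109 in HH HFD. Only 50 of 22218 barcodes occurred in more than 1 library. The main HFD ratios are therefore given over all barcodes, all cell types pooled, as well.

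In beta-like cells both inducible HSP70 genes were lowest in HH HFD. Hspa1a, the first of the inducible HSP70 genes, stood at 219 CPM (interval 215 to 223) for WT SCD, 177 (174 to 181) for HH SCD, 193 (189 to 198) for WT HFD and 58.0 (56.2 to 59.8) for HH HFD. These values rest on 2012, 1956, 1123 and 2761 cells. HH HFD is far from the other libraries, which lie within a narrow band.

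Hspa1b had the same shape, with 122 CPM for WT SCD, 81.4 for HH SCD, 81.9 for WT HFD and 24.5 for HH HFD. Dnajb1, which hands substrates to HSP70 and stimulates its ATPase, stood at 216 CPM for WT SCD, 182 for HH SCD, 185 for WT HFD and 63.2 for HH HFD. For both genes the HH SCD and WT HFD intervals overlapped, WT SCD was highest and HH HFD lowest. On the log2 scale HH HFD differed from WT HFD by -1.74 for Hspa1a (interval -1.80 to -1.68), which is 3.34-fold lower. The difference was -1.74 for Hspa1b (-1.83 to -1.65) and -1.55 for Dnajb1 (-1.60 to -1.49). Over all barcodes without any filter, which pools every cell type at proportions that differ between libraries, the ratios of these 3 genes were -1.49, -1.63 and -1.29.

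The other 2 inducible members had smaller differences. Hsph1, which recharges HSP70 with ATP, stood at 137 CPM for WT SCD, 120 for HH SCD, 170 for WT HFD and 123 for HH HFD, a log2 ratio of -0.46 (-0.51 to -0.41) in HFD. Hspb1, which holds unfolded proteins without ATP, was low in beta-like cells at 11.0, 7.22, 14.8 and 14.7 CPM in the same order of libraries. Its HFD ratio was -0.01 (-0.17 to 0.14), so no difference was detectable at this depth.

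Among the basal members only Dnaja1, a DnaJ partner of Hspa8, showed a ratio of comparable direction and some size in beta-like cells of HFD. It stood at 272 CPM for WT SCD, 240 for HH SCD, 249 for WT HFD and 167 for HH HFD, a log2 ratio of -0.58 (-0.62 to -0.54) in HFD. Hspa8 stood at 756 CPM for WT SCD, 711 for HH SCD, 872 for WT HFD and 807 for HH HFD (ratio -0.11, -0.13 to -0.09). Hsp90aa1 stood at 475, 401, 591 and 583 CPM in the same order (HFD ratio -0.02, -0.05 to 0.00). Both were higher in the HFD libraries than in the SCD library of the same genotype, while Hspa1a, Hspa1b and Dnajb1 were lower.

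The mitochondrial pair moved little. Hspd1 lay between 101 and 118 CPM and Hspe1 between 149 and 184 CPM over the 4 libraries in beta-like cells. Their HFD ratios were -0.15 (-0.21 to -0.09) and -0.06 (-0.11 to -0.01).

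**Figure D1:**
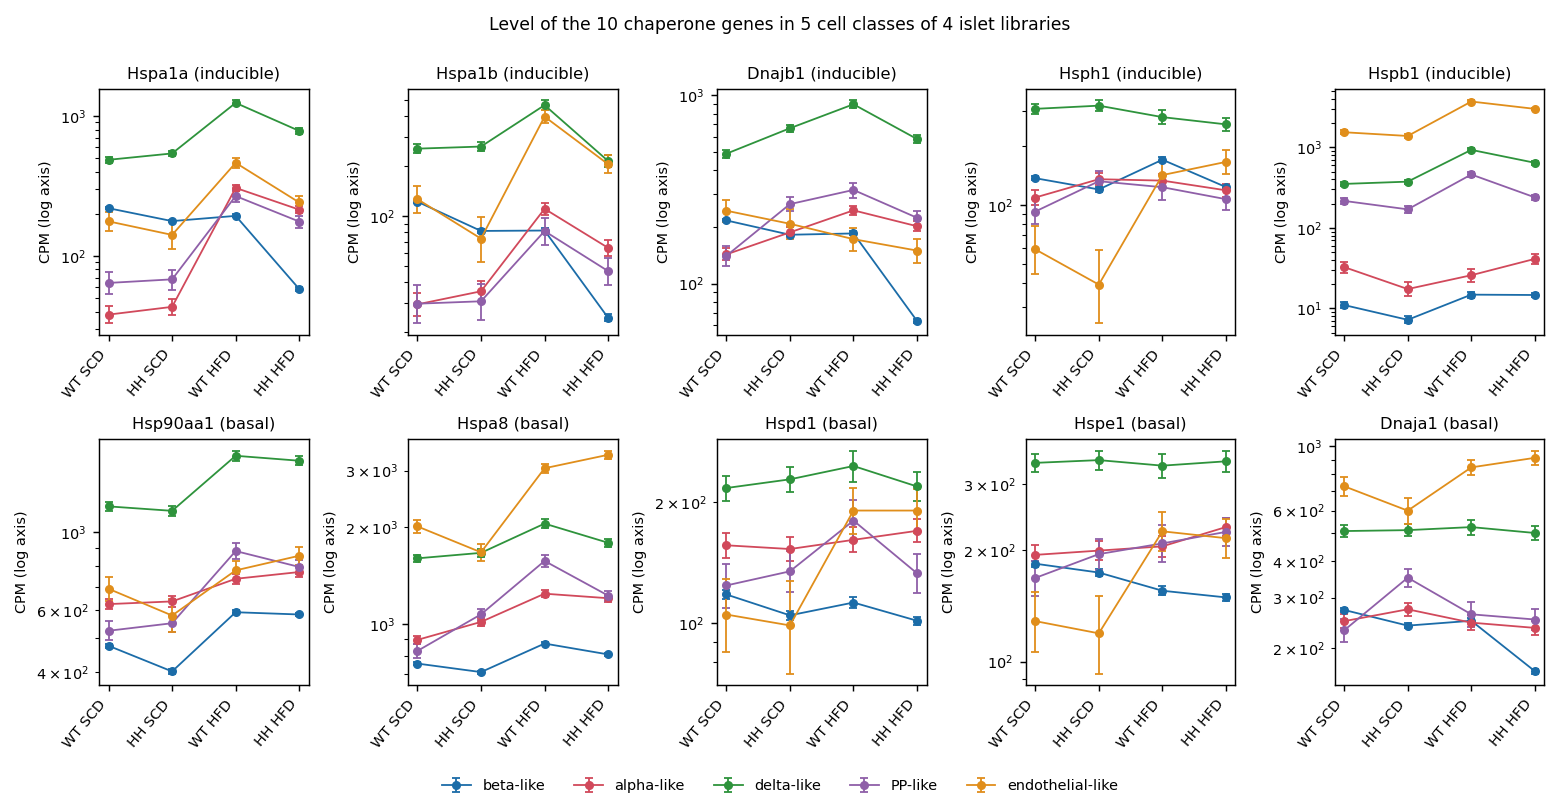
Level of each of the 10 genes in CPM (log axis) in WT SCD, HH SCD, WT HFD and HH HFD, with 1 coloured line per cell class and bars for the 95% counting interval. In the Hspa1a panel the beta-like line drops to 58.0 CPM in HH HFD, while the alpha-like line climbs from 38.0 CPM in WT SCD to 306 in WT HFD.

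Taken over both groups, the beta-like HFD ratio had a median of -1.55 over the 5 inducible members and -0.11 over the 5 basal members, against -0.04 over the 1296 genes that averaged at least 50 CPM in that pair. At least 1.5-fold lower were 3 of the 4 inducible members at that level (Hspb1 was under it) and 0 of the 5 basal members, beside 2.24% of all genes at that level. Because this contrast chose the members, nothing is read from the count. Scaling by median-of-ratios size factors in place of total UMIs moved every beta-like HFD ratio by 0.14, which put the basal median at 0.02 and the inducible median at -1.41. The sign of Hspa8, Hspe1, Hsp90aa1 and Hspb1 thus depended on the scaling, and that of Hspa1a, Hspa1b, Dnajb1, Hsph1 and Dnaja1 did not.

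Several other measures moved between the same 2 libraries. Median depth of beta-like cells was 29798 UMIs in WT HFD and 24109 in HH HFD, and the median mitochondrial share was 4.91% and 4.02%. Early response genes, which are known to be induced by tissue dissociation as well as by stimulation, had a median log2 ratio of -0.67, with 5 of the 9 genes at level (of 14) at least 1.5-fold lower, beside 2.24% of all genes, and all 9 below 0. Fosb had the lowest ratio at -0.86 and Dusp1 the highest at -0.48. The part of depth, RNA quality or early response in the chaperone values was not tested.

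Free RNA in the droplets was estimated to be small beside these levels. From the glucagon and somatostatin UMIs found in beta-like cells, free RNA made up at most 0.80% to 1.91% of their UMIs. Given the make-up of all barcodes of the library pooled, it would account for at most 1.71 to 3.05 CPM of Hspa1a. No empty droplets were used, so free RNA richer in Hspa1a than the pooled barcodes is not covered.

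The beta-like cells of the 2 HFD libraries lay in different clusters. Cluster 13 held 68.9% of them in WT HFD and 36.3% in HH HFD, and cluster 3 held 7.30% and 52.6%. Within cluster 13 the Hspa1a ratio was -1.37 (774 WT and 1003 HH cells), within cluster 3 it was -2.15 (82 and 1453 cells) and within cluster 2 it was -1.66 (141 and 236 cells). The lower HSP70 of HH HFD was thus present inside each of these clusters.

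Dnajb1 had ratios of -1.06, -1.90 and -1.04 in clusters 2, 3 and 13, and Hspa1b had ratios of -1.59, -1.94 and -1.47. Dnaja1 was lower in each as well, by log2 ratios of -0.29, -0.63 and -0.41. Hspb1 differed in direction among clusters, at 1.56, 1.37 and -0.30, so its ratio near 0 over all beta-like cells joins opposite values. Hsp90aa1 was slightly above 0 in all 3 clusters (0.18, 0.14 and 0.07).

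**Figure D2:**
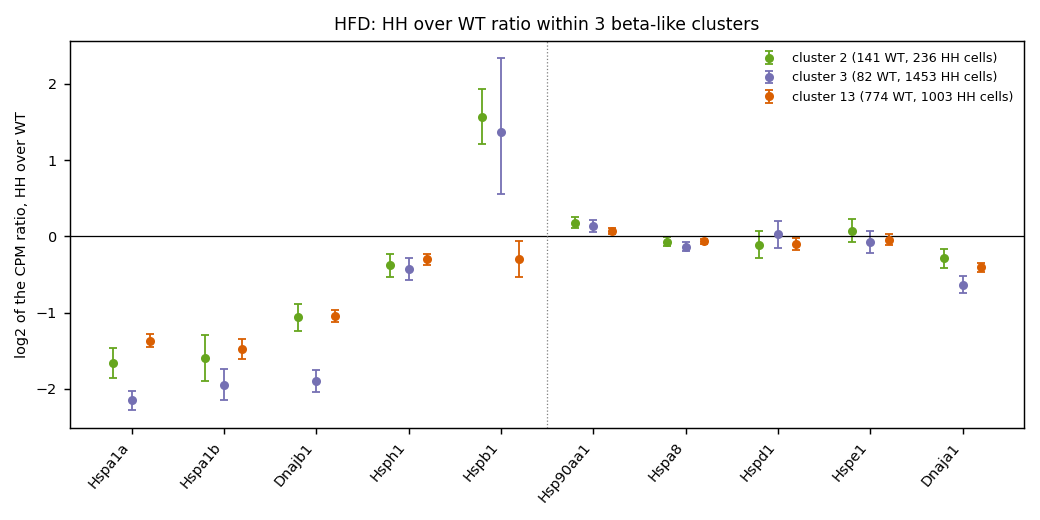
HFD only: log2 of the HH over WT CPM ratio for each of the 10 genes within beta-like clusters 2, 3 and 13, as points with 95% counting intervals, inducible members left of the dotted line. Hspa1a, Hspa1b and Dnajb1 lie below -1 in all 3 clusters, and Hspb1 lies above 0 in clusters 2 and 3 and at -0.30 in cluster 13.

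On SCD the genotypes differed less than on HFD in beta-like Hspa1a, Hspa1b, Dnajb1, Hsph1 and Dnaja1. Hspb1 and Hsp90aa1 differed more on SCD. In beta-like cells all 10 members had a log2 HH over WT ratio below 0, from -0.61 for Hspb1 to -0.08 for Hspe1, with medians of -0.31 over the inducible and -0.17 over the basal members. The median of the 1395 genes at level was also below 0, at -0.04. Among the 9 members at level, the number of these genes with a lower ratio ran from 4 for Hspa1b to 499 for Hspe1. The Hspa1a ratio was -0.31 (-0.35 to -0.27), Hspa1b was at -0.58 (-0.64 to -0.53) and Dnajb1 at -0.25 (-0.29 to -0.21). None of the 9 members at level was 1.5-fold lower, beside 0.287% of all genes. Size factors or a restriction to the clusters with 50 or more cells in every library turned the Hspe1 ratio to 0.02 and 0.06, the former put Hspa8 at 0.0084 and the latter Dnajb1 at 0.03.

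In the other 4 classes compared, Hspa1a was higher in both HFD libraries than in both SCD libraries. Hspa1a stood at 38.0 CPM for WT SCD, 43.2 for HH SCD, 306 for WT HFD and 214 for HH HFD in alpha-like cells, which secrete glucagon. In PP-like cells, which secrete pancreatic polypeptide, it stood at 64.1, 68.0, 268 and 176 CPM in the same order. In both classes the SCD intervals overlapped each other and lay far below those of HFD.

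Delta-like cells, which secrete somatostatin, had the highest Hspa1a of the endocrine classes in every library, at 487 CPM for WT SCD, 540 for HH SCD, 1242 for WT HFD and 783 for HH HFD. Levels between classes also depend on the hormone share of the UMIs, about 55% insulin in beta-like cells. The log2 ratio of delta-like over beta-like Hspa1a was 1.15 for WT SCD and 1.61 for HH SCD, and without hormone and mitochondrial genes in the total it was 0.26 and 0.67. In endothelial-like cells, which line blood vessels, Hspa1a stood at 177, 141, 463 and 241 CPM. In all 4 of these classes Hspa1a was highest in WT HFD and next in HH HFD. Hspa1b had that order in alpha-like, PP-like and endothelial-like cells, but in delta-like cells it stood at 464 CPM for WT HFD, 262 for HH SCD, 254 for WT SCD and 214 for HH HFD, the lowest library there as in beta-like cells.

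As a log2 ratio of HFD over SCD within WT, Hspa1a was 3.01 (2.79 to 3.23) in alpha-like cells, 1.35 (1.26 to 1.44) in delta-like cells, 2.06 (1.77 to 2.36) in PP-like cells and 1.39 (1.13 to 1.65) in endothelial-like cells. Beta-like cells differed from these, at -0.18 (-0.23 to -0.14). Within HH the same ratio was 2.31, 0.54, 1.37 and 0.77 in the first 4 classes and -1.61 (-1.67 to -1.56) in beta-like cells. These ratios share the libraries of the genotype comparison and are not separate evidence.

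Alpha-like and beta-like cells of the 2 diets lay largely in different clusters, while delta-like and PP-like cells each formed 1 cluster in the main clustering. Of alpha-like cells, cluster 4 held 357 in WT SCD and 425 in HH SCD but 16 in WT HFD and 18 in HH HFD, and cluster 5 held 52 and 55 on SCD and 272 and 485 on HFD. Of beta-like cells, cluster 0 held 44.9% and cluster 1 held 43.1% in WT SCD, against 7.75% and 0.0890% in WT HFD. With finer clusters (Leiden resolution 2) delta-like cells were split by diet as well. There 1 cluster held 307 in WT SCD and 314 in HH SCD but 45 in WT HFD and 32 in HH HFD. Another held 25 and 35 on SCD and 115 and 266 on HFD.

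Early response genes moved with these diet ratios in the endocrine classes. Their median HFD over SCD ratio within WT was 1.01 in alpha-like, 1.04 in delta-like, 1.42 in PP-like and -0.38 in beta-like cells, and within HH it was 1.01, 0.13, 1.37 and -1.13. In endothelial-like cells it was -0.57 in WT and -0.54 in HH, where Hspa1a was higher on HFD. The part of the clusters and of early response in the Hspa1a ratios was not tested.

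Counting members at 50 CPM or more that were at least 1.5-fold higher in HFD within WT gave 3 of 9 in alpha-like cells (1.84% of all genes), 4 of 10 in delta-like (2.5%), 6 of 10 in PP-like (6.01%), 7 of 10 in endothelial-like (11.4%) and 0 of 9 in beta-like cells (0.79%). The level is the mean of the libraries compared. In alpha-like cells Hspa1a (38.0 CPM on SCD and 306 on HFD) and Hspa1b (29.5 and 111) passed it only through HFD. So did Hspa1b in PP-like cells (29.8 and 81.3), so nothing is read from these calls. Within HH the counts were 1 of 8 in alpha-like (1.9%), 1 of 10 in delta-like (1.41%), 1 of 9 in PP-like (3.41%) and 8 of 10 in endothelial-like cells (10.6%). Here alpha-like Hspa1a (43.2 and 214 CPM) and endothelial-like Hsph1 (39.2 and 165) passed only through HFD. Alpha-like Hspa1b in HH (35.3 and 64.4 CPM) fell just short of the level. With a minimum of 10 CPM the alpha-like count was 3 in WT (3.55% of all genes) and 3 in HH (4.13%). Among beta-like cells of HH, 3 of 9 members (Hspa1a, Hspa1b and Dnajb1) were at least 1.5-fold lower in HFD, beside 6.56% of all genes. The set was selected on these 3 genes with the same HH HFD library, so nothing is read from the count. Hspa1b (81.4 CPM on SCD and 24.5 on HFD) also passed the level only through SCD. Size factors shifted these HFD over SCD ratios by -0.19 in WT and -0.11 in HH for PP-like cells, and by -0.14 and -0.12 for endothelial-like cells.

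Within HFD the HH over WT ratio of both inducible HSP70 genes lay below 0 in all 5 classes. Hspa1a was at -1.74 in beta-like, -0.52 (-0.63 to -0.40) in alpha-like, -0.67 (-0.75 to -0.58) in delta-like, -0.61 (-0.81 to -0.41) in PP-like and -0.94 (-1.15 to -0.74) in endothelial-like cells. Hspa1b was at -1.74, -0.78, -1.12, -0.80 and -0.95 in the same order of classes. The beta-like ratios are among the values that chose these genes, so their place among the classes is a description only.

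Dnajb1 had HFD ratios of -0.28 (-0.40 to -0.16) in alpha-like, -0.61 (-0.71 to -0.51) in delta-like and -0.49 (-0.67 to -0.31) in PP-like cells. In endothelial-like cells its ratio was -0.20 with an interval that reached 0.09. Hsph1 lay between -0.46 in beta-like and 0.22 in endothelial-like cells, and its intervals in delta-like, PP-like and endothelial-like cells included 0. The 5 basal members stayed between -0.44 (Hspd1 in PP-like) and 0.17 (Hspe1 in alpha-like) in the classes other than beta-like.

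At least 1.5-fold lower in HH HFD than WT HFD were 1 of 9 members at level in alpha-like cells (0.26% of all genes), 3 of 10 in delta-like (0.783%), 3 of 10 in PP-like (1.19%) and 2 of 10 in endothelial-like cells (1.66%). Hspa1b was among them in each of these classes and no basal member was. In PP-like cells Hspa1b (81.3 and 46.7 CPM) passed the level only through WT HFD, where it was high. With a minimum of 10 CPM the shares of all genes were 0.898%, 3.79%, 7.77% and 5.72%. With 100 CPM the alpha-like count was 0 (0.236%) and the PP-like count 2 (0.651%). Size factors add 0.12 in PP-like and 0.054 in delta-like cells. Hspa1a in PP-like and Dnajb1 in delta-like cells would then fall short of 1.5-fold. On SCD, Hspa1b was the only member that much lower in endothelial-like cells (3.65%), and Dnajb1 and Dnaja1 were that much higher in PP-like cells (0.646%).

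**Figure D3:**
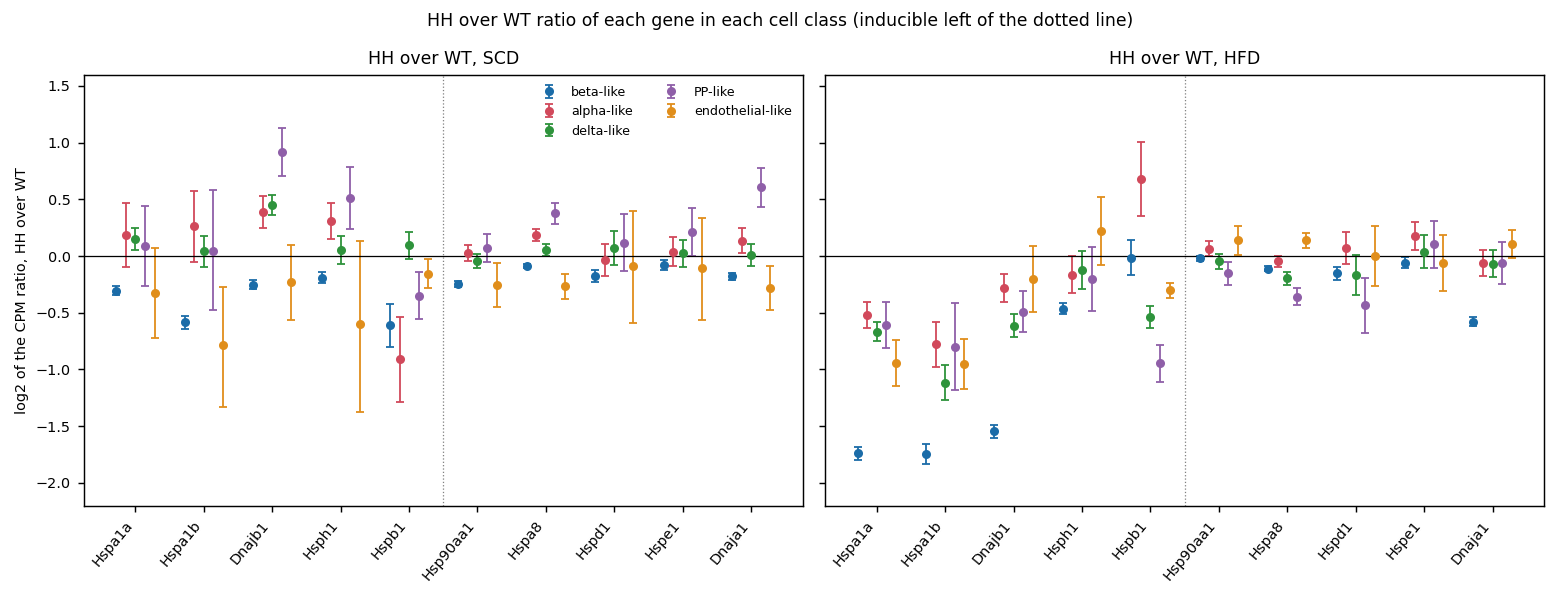
log2 of the HH over WT CPM ratio on SCD (left) and HFD (right) for each of the 10 genes, with 1 coloured point per cell class, 95% counting intervals, and inducible members left of the dotted line. On HFD the Hspa1a and Hspa1b points of all 5 classes lie below 0, with the beta-like points lowest at -1.74, while the basal members lie between -0.44 and 0.17, apart from Dnaja1 in beta-like cells at -0.58.

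Among the 5 classes Hspb1 was highest in endothelial-like cells of every library. It stood at 1542 CPM for WT SCD, 1386 for HH SCD, 3711 for WT HFD and 3008 for HH HFD in endothelial-like cells. In delta-like cells it stood at 352, 375, 932 and 644 CPM, and in PP-like cells at 216, 170, 461 and 239 CPM. In these 3 classes both HFD libraries were above both SCD libraries, with the log2 ratio of HFD over SCD in endothelial-like cells at 1.27 (1.18 to 1.36) in WT and 1.12 (1.01 to 1.23) in HH. Alpha-like cells had only 17.4 to 41.3 CPM, with HH below WT on SCD (-0.91) and above it on HFD (0.67).

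The share of cells with an Hspb1 UMI, after each cell was thinned to 3000 UMIs, was 90.6% to 100% in endothelial-like cells and 1.48% to 3.83% in beta-like cells over the 4 libraries. Median depth before thinning was 5812 to 7127 UMIs in the former and 24109 to 29798 in the latter. By the same estimate free RNA could give at most 0.49 to 2.46 CPM of Hspb1 in beta-like cells, below their measured 7.22 to 14.8 CPM.

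The basal members and Hsph1 were higher on HFD than on SCD in endothelial-like cells of both genotypes. Hsph1 stood at 59.3 CPM for WT SCD, 39.2 for HH SCD, 142 for WT HFD and 165 for HH HFD. Hspa8 stood at 2014, 1674, 3051 and 3358 CPM, and Hspd1 at 105, 98.7, 191 and 191 CPM. The exception was Dnajb1, at 244, 208, 172 and 150 CPM, which was lower on HFD in both genotypes. All genes at level had a median HFD over SCD ratio of 0.09 in WT and 0.06 in HH in this class.

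Ratios between partner genes within a library do not depend on its total. In beta-like cells there were 45.1 Hspa1a and Hspa1b UMIs per 100 UMIs of constitutive Hspa8 for WT SCD, 36.4 for HH SCD, 31.6 for WT HFD and 10.2 for HH HFD. The same measure in alpha-like cells was 7.54, 7.72, 33.5 and 23.1, and in delta-like cells 46.2, 48.1, 83.0 and 55.7. Beta-like cells thus had a far larger inducible share than alpha-like cells on SCD, about the same in WT HFD and a smaller one in HH HFD.

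The DnaJ partners gave a similar picture. Per 100 Dnaja1 UMIs there were 79.6 Dnajb1 UMIs for WT SCD, 75.7 for HH SCD, 74.0 for WT HFD and 37.9 for HH HFD in beta-like cells. In delta-like cells there were 96.1, 130, 170 and 117. Endothelial-like cells had the fewest, with 33.5 and 34.7 on SCD and 20.3 and 16.4 on HFD. The mitochondrial pair had 138 to 166 Hspe1 UMIs per 100 Hspd1 UMIs in beta-like cells, and Hsp90aa1 had 58.3 to 64.4 UMIs per 100 of its paralog Hsp90ab1.

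**Figure D4:**
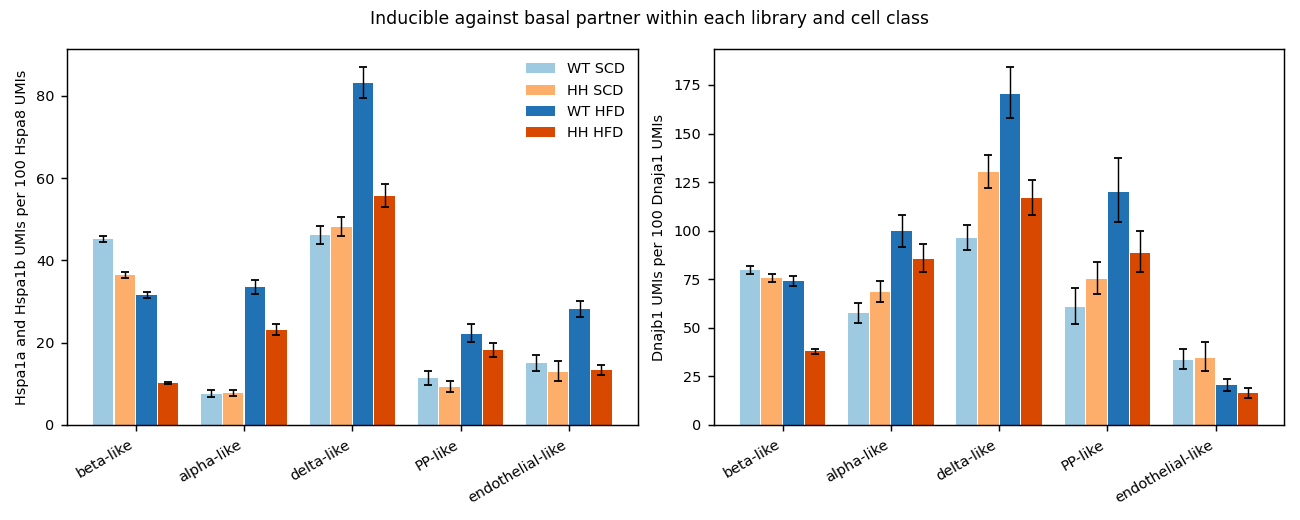
UMIs of inducible members per 100 UMIs of a basal partner, Hspa1a plus Hspa1b against Hspa8 (left) and Dnajb1 against Dnaja1 (right), in 5 cell classes, with 1 bar per library and 95% counting intervals. In beta-like cells the HH HFD bars are lowest, at 10.2 and 37.9, and the WT HFD bars are highest in the other 3 endocrine classes.

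Between the near-copies, Hspa1a gave the larger part of the UMIs in every class and library. In beta-like cells its share of both was 64.3% for WT SCD, 68.5% for HH SCD, 70.3% for WT HFD and 70.3% for HH HFD. In alpha-like cells the share was 56.3% and 55.0% on SCD and 73.5% and 76.9% on HFD. Endothelial-like cells on HFD were the most even, at 53.9% and 54.1%. The 2 genes differ in their 3′ ends, so capture of one may be more efficient than of the other, and only the change of the share between libraries is comparable.

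Fewer beta-like cells of HH HFD had an HSP70 UMI, and the median cell had less of it. The share of cells with an Hspa1a or Hspa1b UMI, after thinning to 3000 UMIs, was 49.3% (47.1 to 51.5) for WT SCD, 42.7% (40.5 to 45.0) for HH SCD, 43.4% (40.4 to 46.3) for WT HFD and 20.4% (18.9 to 22.0) for HH HFD. Before thinning the shares were 84.6%, 80.4%, 82.5% and 56.6%. The median beta-like cell had 255 CPM of both genes together for WT SCD, 175 for HH SCD, 201 for WT HFD and 38.7 for HH HFD.

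In delta-like cells the thinned share was 57.8%, 57.0%, 80.6% and 70.0%, and in endothelial-like cells it was 43.3%, 30.3%, 78.1% and 56.8%. Cells with at least 5 such UMIs among 3000 made up 43.1% of delta-like cells in WT HFD and 27.6% in HH HFD, against 19.9% and 19.5% on SCD. In beta-like cells such cells were rare, at 2.98% for WT SCD, 1.58% for HH SCD, 1.87% for WT HFD and 0.181% (5 of 2761 cells) for HH HFD. Hspa8 was found in 86.0% to 89.1% of thinned beta-like cells in every library, a share too near its ceiling to show a difference in level.

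Beta-like cells with an HSP70 UMI more often had a Dnajb1 UMI in each library. Among thinned beta-like cells, Dnajb1 was found in 44.4% of those with and 34.3% of those without an Hspa1a or Hspa1b UMI in WT SCD. The values were 40.2% and 31.7% in HH SCD, 43.5% and 31.3% in WT HFD and 20.4% and 14.5% in HH HFD. Dnaja1 was also found more often in such cells in each library, at 55.0% and 46.9% in WT SCD. In PP-like cells of HH SCD (44.1% and 45.3%) and endothelial-like cells of WT HFD (36.0% and 40.6%) Dnajb1 was not found more often. Cells of 1 library are not replicates, so these shares describe the libraries only.

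**Figure D5:**
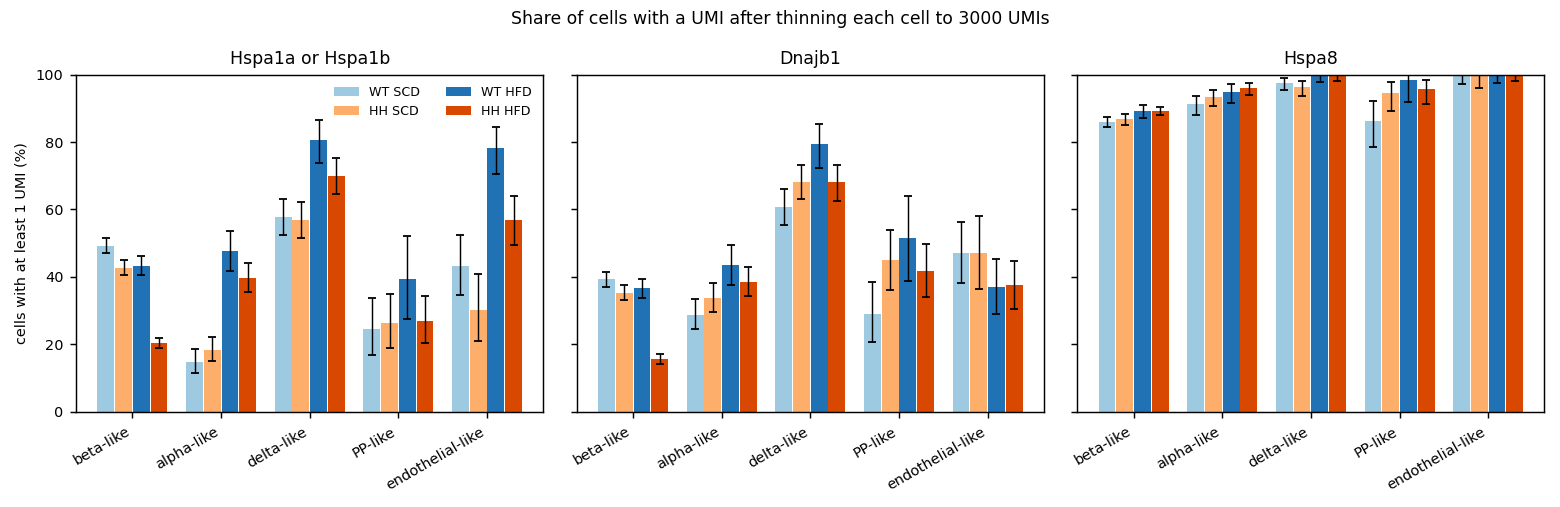
Share of cells (%) with at least 1 UMI of Hspa1a or Hspa1b, of Dnajb1 and of Hspa8 in 5 cell classes after thinning each cell to 3000 UMIs, with 1 bar per library and exact 95% binomial intervals. The beta-like HH HFD bar is the lowest of its class for Hspa1a or Hspa1b (20.4%) and Dnajb1 (15.7%) and level with WT HFD for Hspa8 (89.1%).

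Other genes of the heat shock response were read in the same contrast of beta-like cells on HFD. Of 16 other HSF1 targets, 6 were at level, and 0 of them reached 1.5-fold in either direction, where 2.24% of all genes were lower and 1.39% higher by that much, with a median of -0.21 and a range of -0.52 to -0.04. Dnaja4, a DnaJ protein, stood at -0.25, while Fkbp4, an HSP90 co-chaperone, stood at -0.11 and Cacybp at -0.04. Hsf1 itself, the regulator, had only 14.2 CPM in WT HFD and 10.7 in HH HFD, a ratio of -0.41 (-0.58 to -0.24) over 477 and 730 UMIs.

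The cytosolic partner genes had a median of -0.06 over the 8 of 15 at level, with St13, an HSP70-interacting protein, lowest at -0.26 and Hsbp1 highest at 0.10. Hsp90ab1, the constitutive HSP90, stood at -0.07. The CCT chaperonin, which folds actin and tubulin, had a median of -0.11 over 7 of 8 subunits, from -0.26 for Cct3 to 0.08 for Tcp1. Hspa9, the mitochondrial HSP70 and the 1 gene of 8 at level in its list, was at -0.34. In none of these 3 lists did a gene reach 1.5-fold, which at those shares of all genes says little about the lists.

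The chaperones of the endoplasmic reticulum went the other way, with a median of 0.30 and 11 of 13 genes above 0. Sdf2l1 was 1.5-fold or more higher, at 0.72, beside 1.39% of all genes at level, Hsp90b1 was at 0.30 (0.28 to 0.32) and Hspa5, the main HSP70 of that compartment, at 0.08 (0.06 to 0.10). With size factors these ratios would each be higher by 0.14.

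Across 20 values, 5 classes in 4 libraries, the summed Hspa1a and Hspa1b level centred within each class was, with the members left out, most alike to Jun among the genes compared, with a Pearson r of 0.86. Fos (0.83), Ubb (0.82), Fth1 (0.81), Pkm (0.80), Txnip (0.80), Pcbp1 (0.79) and Rhob (0.79) followed. Hspa1a is part of the sum. Of the members outside it, Hspa8 had an r of 0.70, Hspd1 and Dnajb1 each 0.61, Hspe1 0.59, Hsp90aa1 0.55, Hsph1 0.40 and Dnaja1 0.33. The values of a library share its preparation and depth, so the 20 points are not independent and no test is attached.

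Jun, an early response gene, stood at 646 CPM for WT SCD, 737 for HH SCD, 652 for WT HFD and 390 for HH HFD in beta-like cells, and at 770, 870, 1710 and 1764 CPM in alpha-like cells. Like HSP70 it was lowest in HH HFD among beta-like cells and higher on HFD in alpha-like cells, but in alpha-like cells it was no lower in HH HFD than in WT HFD. As a list, the early response genes had an HFD median of -0.58 in delta-like cells, 0.06 in alpha-like, 0.16 in PP-like and -0.13 in endothelial-like cells. Hspa1a and Hspa1b were lower in HH HFD than in WT HFD in all of these classes. The part of early response in the HSP70 values was not tested.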

How the data were processed

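The authors deposited raw UMI counts per gene and barcode for 4 droplet libraries made with the Chromium 3′ v3.1 kit. Per the file headers they were made by Cell Ranger 6.0.2 (6.0 in the submitters' processing notes) on GRCm38/mm10. The settings for reads that match several genes are not given in the sources used here.

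Cells with 3000 to 50000 UMIs, 2000 to 5000 genes and under 10% mitochondrial UMIs were kept, and the 33 to 154 cells per library with the highest simulated-doublet scores were removed at a rate of 0.8% per 1000 cells, because the automatic threshold of the caller marked too few. The 12404 cells were clustered with scanpy 1.11.5 (3000 variable genes without the listed chaperone and early response genes, 30 components, 20 neighbours, Leiden resolution 1) into 19 clusters, of which 1 stayed unnamed, with names from marker genes. Counts were summed per class and library and divided by the sum (CPM), with exact Poisson intervals for a level, conditional binomial intervals for a ratio (scipy 1.17.1) and Clopper-Pearson intervals for a share, at 95%. They cover counting error only. With 1 library per group no test was run and no p-value is given. A gene was at level with a mean of 50 CPM or more in the pair compared, and called at 1.5-fold. Free RNA was bounded from another cell type's hormone, as if all its UMIs in a class were free RNA. It was taken to have the make-up of all barcodes of its library pooled. Scripts were tested on simulated data.

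The 10 members and the gene lists were chosen with earlier results of these data known. The genes that could be named beside the members were the 2 highest and 2 lowest genes of each list in beta-like cells of HFD, the paralogs Hsp90ab1, Hspa5, Hspa9 and Hsp90b1, Hsf1, and the 8 genes most like Hspa1a and Hspa1b by Pearson r of log2(CPM + 10). Not all of these are named in the text, and one is not reported here. Samples were grouped by their labels. Alternatives were another cell filter, doublets kept, other scalings, equal weight per cell, free RNA subtracted, finer clusters, cells split by mitochondrial share or depth, other thinning depths and other level minimums. The restriction to beta-like clusters with 50 or more cells in every library was chosen after seeing the data.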

Additional observations from a re-analysis of the deposited data

Results flagged for a closer look

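Some members had HH over WT ratios of opposite sign in the SCD and HFD libraries, each with a counting interval clear of 0. With 1 library per group whether the diets differ in this was not tested.

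Dnajb1 was higher in HH on SCD and lower in HH on HFD in all 3 endocrine classes other than beta-like. Alpha-like cells had a Dnajb1 log2 ratio of 0.39 on SCD and -0.28 on HFD, delta-like cells of 0.45 and -0.61, and PP-like cells of 0.91 and -0.49. Hspa8, the constitutive HSP70, had ratios of 0.056 and -0.20 in delta-like cells and 0.38 and -0.36 in PP-like cells, and the reverse order in endothelial-like cells at -0.27 and 0.14, where finer clusters (Leiden resolution 2) turned the HFD ratio to -0.074, the sign of SCD. Hsp90aa1 in endothelial-like cells was at -0.25 on SCD and 0.14 on HFD. Hspa1a in delta-like cells was at 0.15 and -0.67. In alpha-like cells Hsph1 was at 0.31 and -0.16, and Hspb1 had the reverse order at -0.91 on SCD and 0.67 on HFD.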

How the results depend on the processing

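No paired analysis was possible because each group is 1 library. The 4 group medians kept their sign under every alternative that was run, with the exception of the basal beta-like HFD median. That median was -0.11, and median-of-ratios size factors put it at 0.024, with the single genes Hspa8 at 0.024, Hspe1 at 0.077, Hsp90aa1 at 0.12 and Hspb1 at 0.12, of which the last 2 had intervals that included 0 in the values reported. The inducible beta-like HFD median of -1.55 moved to -1.64 with a looser cell filter, -1.47 with doublets kept, -1.41 with size factors, -1.48 with equal weight per cell, -1.61 in cells of low mitochondrial share, -1.72 in deep cells and -1.04 in the beta-like clusters with 50 or more cells in every library. The inducible beta-like SCD median of -0.31 moved to -0.25 without hormone and mitochondrial genes, -0.21 with size factors and -0.24 in those common clusters. The inducible endothelial-like HFD median of -0.30 moved to -0.62 at Leiden resolution 2 and -0.24 in deep cells, and the basal beta-like HFD median to -0.082 without hormone and mitochondrial genes, -0.15 in deep cells and -0.052 in common clusters. Other ratios that had an interval clear of 0 and changed sign were, on SCD in beta-like cells, Hspa8 (0.0084) and Hspe1 (0.017) with size factors and Dnajb1 (0.028) and Hspe1 (0.063) in common clusters. In endothelial-like cells Hspb1 on SCD turned to 0.13 in cells of low mitochondrial share and 0.0022 in deep cells, and Hspa8 on HFD to -0.074 at Leiden resolution 2. Size factors shift every beta-like HFD ratio by the same amount, and the cause of the other moves was not tested. Intervals widen in PP-like and endothelial-like cells, where 66 to 192 cells per library carry each value.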

Other observations

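Macrophage-like and stromal-like cells were few on SCD (9 and 17, and 16 and 46 cells). In macrophage-like cells Hspa1a stood at 771 CPM in WT HFD (48 cells) and 107 in HH HFD (50 cells), a log2 ratio of -2.85 (-3.21 to -2.52). Insulin transcripts made up 4.78% of macrophage-like UMIs in WT HFD and 38.7% in HH HFD, which lowers the CPM of every other gene in the latter, and Hspa8 had a ratio of -0.90 (-1.01 to -0.79) there. At Leiden resolution 2, 47 WT HFD and 22 HH HFD cells lay in a macrophage-like cluster led by C1qb, while an unnamed cluster led by Ccl4 and Il1b, with 10 of 10 beta markers detected, held 3 and 43. The part of these differences in the Hspa1a value was not tested.

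In stromal-like cells Hspa1a stood at 1685 CPM in WT HFD (48 cells) and 453 in HH HFD (108 cells), a ratio of -1.89 (-2.08 to -1.71), and Hspb1 stood at 1284 and 715 CPM, a ratio of -0.85 (-1.02 to -0.67). Hspa8 differed little in the same cells, at -0.06 (-0.19 to 0.07). On SCD their Hspa1a stood at 655 CPM in WT (46 cells) and 1094 in HH (16 cells), so HH HFD was the lowest library in this class too. Stromal-like cells of WT HFD had the highest Hspa1a of any class named here.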
